A study of Drosophila melanogaster with 9 samples.

Results

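The EGFR, Ras and MAPK pathway was described in S2R+ cells through 10 genes: the receptor Egfr, the ligand genes spi and vn, the cascade genes Ras85D, Dsor1 and rl, the ETS transcription factor genes pnt and aop, and the feedback inhibitor genes sty and aos. They were taken by FlyBase symbol from the 17562 genes counted, and all 10 were among the 8705 genes that passed the filter for low expression and were tested. In this pathway a secreted ligand binds the receptor tyrosine kinase Egfr at the cell surface, and the signal passes through the small GTPase Ras to Raf, to the kinase encoded by Dsor1 (MEK) and to the kinase encoded by rl (ERK). ERK then acts on nuclear factors: it activates the ETS activator Pointed (pnt) and removes the ETS repressor Yan (aop). Genes switched on by the pathway include its own inhibitors, so that the transcripts of aos and sty are widely used as its readouts in fly tissues.

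RNA was sequenced from the S2R+ line (DGRC 150, an embryonic line of the Oregon-R strain with hemocyte character) in 3 media, with 3 libraries of each. MB10, the control, is M3 medium with BPYE (bactopeptone and yeast extract) and 10% FCS. The other media, M3 + 2.5% FEx with its richer form M3 + 10% FEx (2.5% FEx and 10% FEx in what follows), lack serum and BPYE and contain fly extract, a heat-treated and filtered homogenate of adult flies of both sexes. Each medium held a single line, adapted by stages, and the cells in 2.5% FEx descend from those in 10% FEx, so the medium and the history of its line cannot be told apart in any comparison below. The labels call the libraries triplicates without naming separate passages, and p-values measure only the spread between these samples.

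Library totals were 20694827 to 29076620 counts, and 3 counts stood for 0.106 to 0.151 CPM (read counts scaled to library size, here after TMM normalization). Hemocyte identity was checked with 13 marker genes of plasmatocytes or hemocytes in general. Of these, 12 were high enough to test, and NimC1 had 0 to 3 counts in every library. The genes eater, Col4a1 and vkg had means of only 2.12 to 4.50 CPM. The summed level of the 13 markers was 3632 to 4074 CPM in MB10, 2827 to 2909 CPM in 2.5% FEx and 2437 to 2544 CPM in 10% FEx. The largest fall in CPM was that of Glt, from 1578 CPM in MB10 to 741 and 582 CPM. By fold change Pxn fell most in both extract media (log2 fold changes of -1.22 and -2.08), from 377 CPM to 162 and 89.3 CPM. Hml and srp were lower in 10% FEx than in MB10 (log2 fold changes of -1.89 and -0.34) and had no call in 2.5% FEx. In 10% FEx, 8 of the 12 tested markers were lower than in MB10 and 1 was higher, beside 27.6% and 25.5% of all genes tested. In 2.5% FEx, 3 were lower and 1 was higher, beside 22.2% and 22.0%. The 5 lamellocyte markers went the other way in sum, with 833 to 903 CPM in MB10, 1019 to 1049 CPM in 2.5% FEx and 1228 to 1255 CPM in 10% FEx. Most of this sum was mys (253, 318 and 429 CPM in the 3 media) and msn (591, 688 and 743 CPM), both already high in MB10. PPO3, at 20.1, 16.1 and 22.2 CPM in the 3 media, had no call in either extract medium. In each extract medium 4 of the 5 were higher and none lower than MB10, beside the same shares of all genes. Among these, ItgaPS4 was at 3.04 ± 0.702, 14.4 ± 1.88 and 43.0 ± 1.21 CPM in the 3 media, and atilla had at most 1, 6 and 48 counts in a library. The expression filter kept atilla only through 10% FEx, where it is high, so it had to differ there. Its call in 2.5% FEx rests on 3 to 6 counts in a library. The 4 crystal cell markers summed to 17.2 to 22.6 CPM, 7.30 to 7.89 CPM and 15.9 to 18.0 CPM. Of these 2 were higher (lz and PPO1) and 1 lower (peb) than MB10 in each extract medium, beside the shares of all genes given above. In MB10, lz had 0 to 1 count and PPO1 1 to 6 counts, and lz had 10 to 23 counts in 2.5% FEx and 43 to 57 in 10% FEx. Both genes were under the expression filter in every MB10 library. They were kept through the extract media, where they are high, and had to differ from MB10. The part of these shifts in the values below was not tested. RNA from the flies in the extract was looked for with 11 genes of adult eye, yolk, flight muscle, male accessory gland, testis and antenna. Of these, 10 had at most 13 counts in any library, and the other, TpnC4, had 51.3 to 87.1 CPM and was present in MB10 as well.

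The large movements were in the receptor and 1 inhibitor, Egfr and aos, and the other 8 genes had log2 fold changes between -0.57 and 0.46 in all 3 comparisons. Egfr was nearly silent in MB10 and 2.5% FEx and was detected at a low level in 10% FEx. aos was 3.64-fold higher in 2.5% FEx than in MB10, and no difference passed the test in 10% FEx. sty was 1.41-fold lower in 10% FEx. The cascade kinase gene Dsor1 was 1.40-fold lower in 2.5% FEx, and pnt was 1.18 to 1.19-fold higher in both extract media. In bulk RNA, a change in the number of cells that express a gene and a change in RNA per cell cannot be told apart.

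To compare genes with each other, CPM was divided by the length of their exons in kb. In MB10, spi (208 ± 3.85 CPM per kb, SD, n = 3), sty (185 ± 19.6) and Ras85D (170 ± 4.27) stood at the top, above 95.1% or more of the genes tested. They were followed by pnt (85.3 ± 7.47), aop (58.7 ± 6.47), rl (28.8 ± 5.40) and Dsor1 (16.1 ± 2.91), the last close to the median of 17.7 CPM per kb over all genes tested. Far below lay aos (1.17 ± 0.198), vn (0.484 ± 0.0985) and Egfr (0.0171 ± 0.0124). Of neighbours in this order, only sty and Ras85D had libraries that overlapped. The order was the same in 2.5% FEx, where spi and sty overlapped, and it changed at 1 place in 10% FEx, where Ras85D (154 ± 3.86 CPM per kb) stood above sty (132 ± 0.487).

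**Figure D1:**
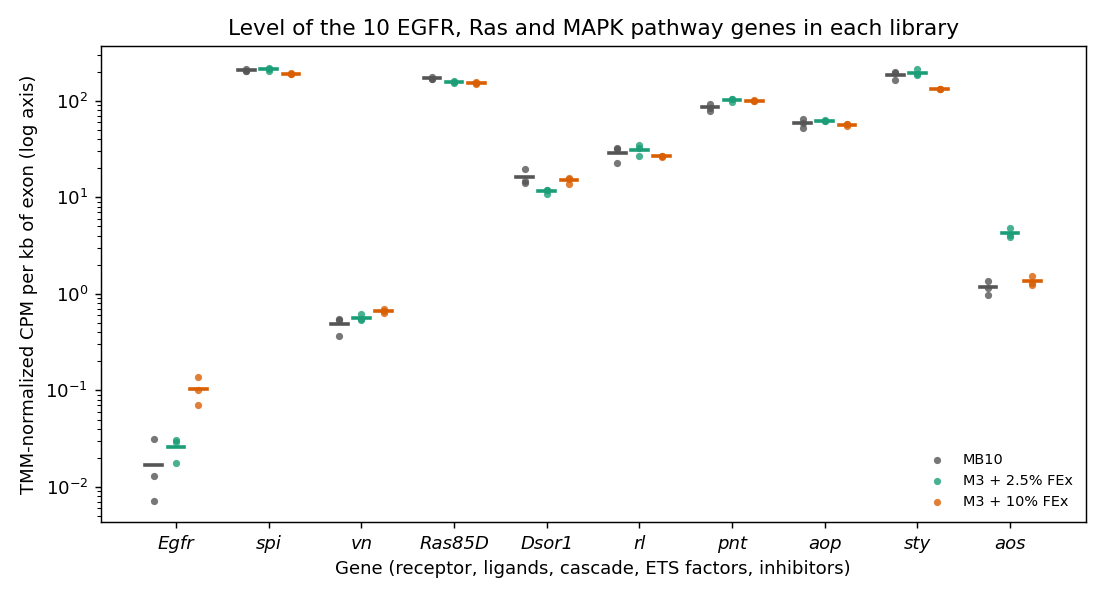
Level of the 10 genes in each of 9 libraries, in TMM-normalized CPM per kb of exon on a log axis; points are libraries and bars are the mean of 3. From spi at 208 to Egfr at 0.0171 CPM per kb in MB10, the genes keep nearly the same order in every medium, and only Egfr and aos shift visibly.

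The receptor gene Egfr (FBgn0003731, chromosome arm 2R from 21522420 to 21559977) had 1, 5 and 2 counts in the MB10 libraries, 5, 5 and 3 counts in 2.5% FEx and 20, 11 and 20 counts in 10% FEx. The libraries in 10% extract were all above the other 6, which overlapped. The mean was 0.119 ± 0.0865 CPM in MB10, 0.180 ± 0.0485 CPM in 2.5% FEx and 0.723 ± 0.235 CPM in 10% FEx (SD, n = 3). From the summed counts (51 against 8), Egfr was 5.84-fold higher in 10% FEx than in MB10, with an exact 95% interval of 2.75 to 14.3 that covers counting error only. edgeR gave a log2 fold change of 2.50 (standard error, SE, 0.46, adjusted p = 6.79e-04), and 1.96 (SE 0.41, adjusted p = 0.00529) against 2.5% FEx. Between 2.5% FEx and MB10 no difference was detectable at this depth, with a ratio of 1.47 and an interval of 0.565 to 4.09. Egfr passed the expression filter only through its libraries in 10% FEx, so a gene kept in this way had to differ, and counts of members are given below with and without it. Even in 10% FEx its level per kb was above only 0.9% of the genes tested.

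Of the ligands, spi (FBgn0005672, chromosome arm 2L from 19567900 to 19577315) encodes Spitz, the main TGF-alpha-like ligand, which is made as a membrane-bound precursor. It was at 385, 373 and 373 CPM in MB10, 372, 387 and 401 CPM in 2.5% FEx and 347, 345 and 351 CPM in 10% FEx. The libraries in 10% extract were all below the other 6, but by little: the log2 fold change was -0.12 (SE 0.06, edgeR adjusted p = 0.120) against MB10 and -0.15 (SE 0.06, adjusted p = 0.0919) against 2.5% FEx. In 2.5% FEx against MB10 it was 0.04 (SE 0.06, adjusted p = 0.660). The drop in 10% FEx passed against MB10 with upper-quartile factors (adjusted p = 0.0396) and against 2.5% FEx in DESeq2 (0.0179) and in a fit of those 6 libraries (0.0420).

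The gene vn (FBgn0003984, chromosome arm 3L from 5813338 to 5845664) encodes Vein, a neuregulin-like ligand that is secreted without cleavage of a precursor. It was at 2.81, 2.85 and 1.94 CPM in MB10, 3.21, 2.80 and 2.86 CPM in 2.5% FEx and 3.68, 3.29 and 3.47 CPM in 10% FEx. Every library in 10% extract exceeded the other 6. The rise against MB10 had a log2 fold change of 0.46 (SE 0.16, edgeR adjusted p = 0.0270). It rested on few libraries: without MB10 replicate 3, the lowest, the log2 fold change was 0.30 (adjusted p = 0.109), and the call was also lost without 10% FEx replicate 1 or 3 (adjusted p = 0.0878 and 0.0570) and in DESeq2 (adjusted p = 0.0582). In 2.5% FEx the log2 fold change was 0.22 (SE 0.16, adjusted p = 0.285).

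Within the cascade, Ras85D (FBgn0003205, chromosome arm 3R from 9510561 to 9513067), the fly homologue of the mammalian Ras genes, was at 331, 326 and 342 CPM in MB10, 300, 303 and 314 CPM in 2.5% FEx and 308, 293 and 301 CPM in 10% FEx. All 6 extract libraries were below all MB10 libraries, with a log2 fold change of -0.12 (SE 0.06, edgeR adjusted p = 0.110) in 2.5% FEx and -0.15 (SE 0.06, adjusted p = 0.0525) in 10% FEx. Neither passed the threshold. With upper-quartile factors both did (log2 fold changes of -0.17 and -0.19, adjusted p = 0.0303 and 0.0156), and in DESeq2 the second (adjusted p = 0.0245).

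Dsor1 (FBgn0010269, chromosome X from 9247342 to 9250037), the gene for the fly MEK, was at 26.8, 25.2 and 35.0 CPM in MB10, 21.3, 21.3 and 19.5 CPM in 2.5% FEx and 28.0, 24.5 and 28.4 CPM in 10% FEx. The libraries in 2.5% extract were the lowest and overlapped with none of the others. Dsor1 fell by 0.49 on the log2 scale in 2.5% FEx against MB10 (SE 0.12, edgeR adjusted p = 0.00567). This call was kept in all alternatives run (adjusted p at most 0.0244), and without MB10 replicate 3, the highest library, the log2 fold change was -0.33. In 10% FEx the log2 fold change against MB10 was -0.11 (SE 0.12, adjusted p = 0.467). Against 2.5% FEx, Dsor1 was higher in 10% FEx (log2 fold change 0.38, SE 0.12, adjusted p = 0.0366), a call lost without any 1 of 2.5% FEx replicates 1 to 3 or 10% FEx replicates 1 and 3 (adjusted p = 0.0589 to 0.118) or in a model with replicate numbers as blocks (0.0524).

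The gene rl (FBgn0003256, chromosome arm 2R from 1071462 to 1125927) encodes Rolled, the fly ERK. Its libraries were at 246, 238 and 172 CPM in MB10, 204, 245 and 262 CPM in 2.5% FEx and 203, 202 and 198 CPM in 10% FEx. The spread within MB10 was wider than any difference between media, and no comparison passed the threshold (edgeR adjusted p = 0.464, 0.440 and 0.198 for 2.5% FEx and 10% FEx against MB10 and for the pair of extract media). Without MB10 replicate 3, rl was lower in 10% FEx than in MB10 (log2 fold change -0.27, adjusted p = 0.0148) and than in 2.5% FEx (log2 fold change -0.24, adjusted p = 0.0277). The latter also passed in a fit of the 6 extract libraries (adjusted p = 0.0236).

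The ETS factor gene pnt (FBgn0003118, chromosome arm 3R from 23290231 to 23346167) was at 513, 572 and 481 CPM in MB10, 633, 594 and 634 CPM in 2.5% FEx and 605, 613 and 626 CPM in 10% FEx. All extract libraries exceeded all MB10 libraries. The log2 fold changes were 0.25 (SE 0.08, edgeR adjusted p = 0.0207) and 0.24 (SE 0.08, adjusted p = 0.0213), and the extract media did not differ detectably (log2 fold change -0.01, SE 0.08). Both calls were close to the threshold. Without 1 of MB10 replicates 1 and 3 or 2.5% FEx replicates 1 and 3, the first had an adjusted p of 0.0514 to 0.0718. Without 1 of MB10 replicates 1 and 3 or 10% FEx replicates 2 and 3, the second had 0.0546 to 0.0660, and with upper-quartile factors 0.0509.

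The gene aop (FBgn0000097, chromosome arm 2L from 2156484 to 2178754) encodes Yan, which competes with Pointed for the same sites on DNA. It was at 318, 356 and 286 CPM in MB10, 338, 334 and 346 CPM in 2.5% FEx and 297, 312 and 315 CPM in 10% FEx, and both extract media overlapped with MB10. Its log2 fold changes were 0.08 and -0.06 against MB10 (SE 0.08 in each, edgeR adjusted p = 0.405 and 0.582) and -0.14 between the extract media (adjusted p = 0.232). Without MB10 replicate 2, the highest, aop passed in 2.5% FEx against MB10 (log2 fold change 0.19, adjusted p = 0.0439). An opposite-strand gene, CG15382, shares 307 bp with aop exons, and CG15382 itself had at most 2.62 CPM.

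As pnt and aop stood in the same order over the MB10 libraries, their counts were divided within each library, which needs no scaling between libraries. This ratio was chosen after the values were seen. It was 1.61, 1.61 and 1.69 in MB10, 1.87, 1.78 and 1.83 in 2.5% FEx and 2.04, 1.96 and 1.99 in 10% FEx. The 3 media did not overlap, and the means were 1.63 ± 0.0443, 1.83 ± 0.0461 and 2.00 ± 0.0388 (SD, n = 3). The exact permutation test (two-sided) gave p = 0.1 for each of the 3 comparisons, also after Benjamini-Hochberg adjustment, which is the smallest that 3 libraries against 3 allow.

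**Figure D2:**
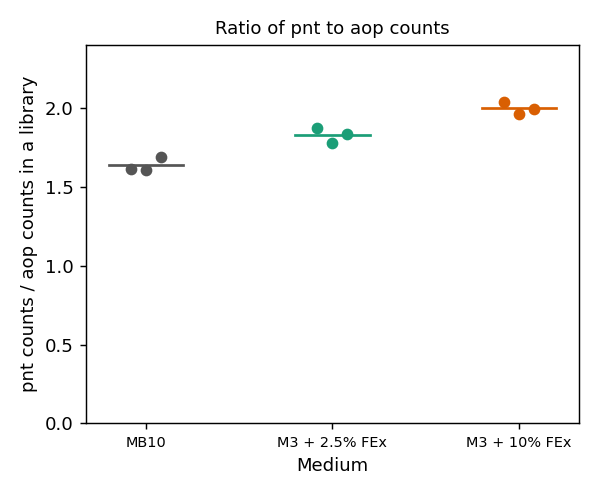
Ratio of pnt counts to aop counts within each library, by medium; points are libraries and lines are the mean of 3. The ratio lies at 1.61 to 1.69 in MB10, 1.78 to 1.87 in 2.5% FEx and 1.96 to 2.04 in 10% FEx.

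The inhibitor genes did not move together. aos (FBgn0004569, chromosome arm 3L from 16470386 to 16483650) encodes Argos, a secreted protein that binds and sequesters Spitz outside the cell. It was at 3.87, 3.28 and 2.75 CPM in MB10, 10.9, 11.4 and 13.6 CPM in 2.5% FEx and 4.32, 3.69 and 3.47 CPM in 10% FEx. All libraries in 2.5% extract stood well above the other 6, which overlapped. The log2 fold change of aos was 1.87 in 2.5% FEx against MB10 (SE 0.14, edgeR adjusted p = 7.93e-07) and 0.23 in 10% FEx against MB10 (SE 0.16, adjusted p = 0.254). Directly compared, aos was 3.11-fold lower in 10% FEx than in 2.5% FEx (log2 fold change -1.64, SE 0.14, adjusted p = 8.70e-06). Leaving out 1 library at a time gave 1.75 to 2.00 for the first and -1.74 to -1.54 for the last value.

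sty (FBgn0014388, chromosome arm 3L from 3401153 to 3424935) encodes Sprouty, an intracellular inhibitor of receptor tyrosine kinase signals to Ras. In CPM it was the most abundant of the 10 genes, at 1073, 1066 and 884 CPM in MB10, 1018, 1006 and 1162 CPM in 2.5% FEx and 719, 714 and 714 CPM in 10% FEx. The libraries in 10% extract lay below all others and close to each other. sty fell by 0.49 on the log2 scale in 10% FEx against MB10 (SE 0.09, edgeR adjusted p = 8.35e-04) and by 0.57 against 2.5% FEx (SE 0.09, adjusted p = 0.00119). In 2.5% FEx against MB10 the log2 fold change was 0.08 (SE 0.09, adjusted p = 0.533). Both calls in 10% FEx were kept in all alternatives run.

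**Figure D3:**
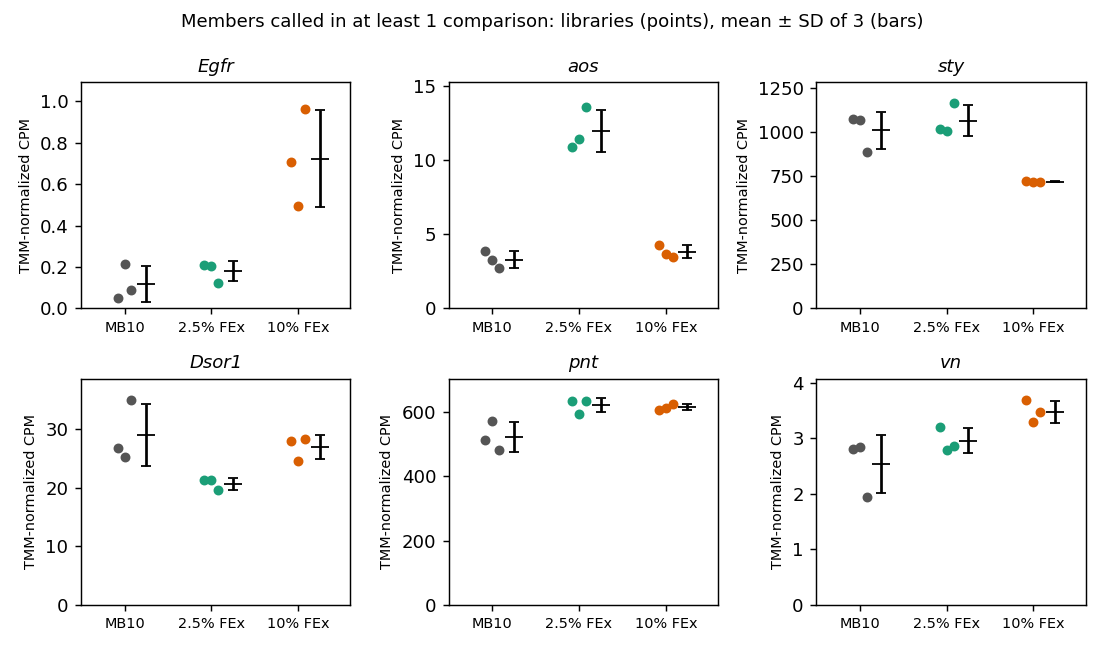
The 6 genes called in at least 1 comparison, in TMM-normalized CPM from an axis that starts at 0; points are the 3 libraries of a medium and bars are their mean ± SD. Egfr stands apart in 10% extract (0.495 to 0.964 CPM), aos in 2.5% extract (10.9 to 13.6 CPM) and sty in 10% extract (714 to 719 CPM).

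The members were then counted beside all genes tested. In 2.5% FEx against MB10, 2 of the 10 genes (pnt and aos) were higher and 1 (Dsor1) was lower at an adjusted p under 0.05, beside 22.0% higher and 22.2% lower of the 8705 genes tested. In 10% FEx, 3 (Egfr, vn and pnt) were higher and 1 (sty) was lower, or 2 and 1 of 9 without Egfr, beside 25.5% and 27.6% of all genes. Between the extract media, Egfr and Dsor1 were higher and sty and aos lower in 10% FEx, beside 10.5% higher and 11.3% lower of all genes. Without Egfr these were 1 and 2 of 9. With an absolute log2 fold change above 1 also required, only aos passed in 2.5% FEx (8.52% of all genes), only Egfr in 10% FEx (11.0%), and both in the comparison of the extract media (3.47%). Without Egfr these counts were 1, 0 and 1 of 9. The median log2 fold change of the members was 0.10, -0.08 and -0.08 in the same order of comparisons, and over all genes tested it was -0.04, -0.04 and 0.00. The comparisons with MB10 share its libraries, and 1 member is 10% of the list, so these counts say little of the list as a whole.

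**Figure D4:**
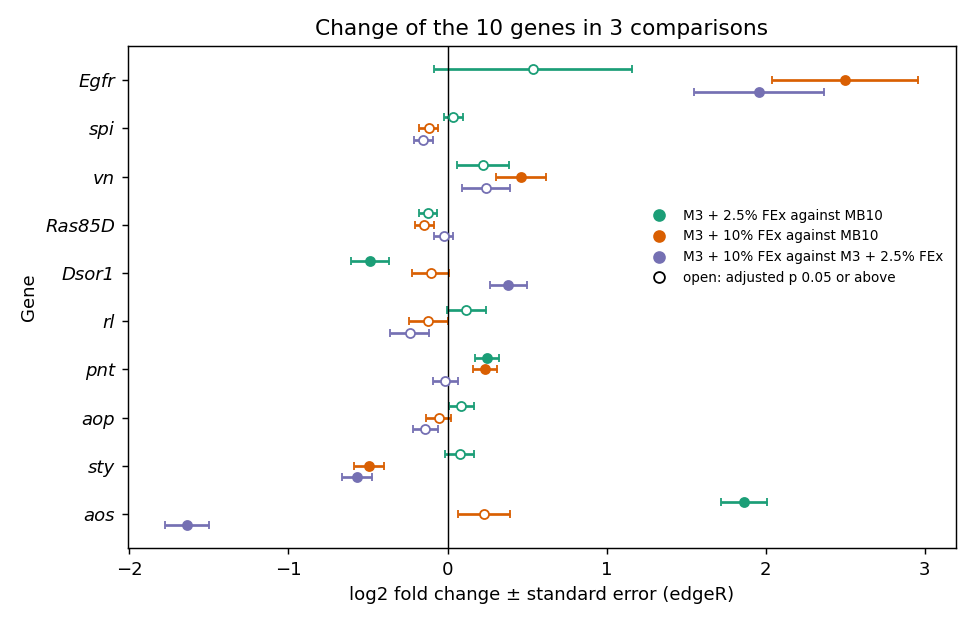
log2 fold change ± standard error of the 10 genes in 3 comparisons, from edgeR; filled points have an adjusted p under 0.05. Egfr (2.50 and 1.96 in 10% extract) and aos (1.87 in 2.5% extract and -1.64 between the extract media) stand apart, and the other genes lie between -0.57 and 0.46.

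Around the members, a wider list of 45 genes of the pathway and of receptors that feed the same cascade was measured, and 37 could be tested. This list was written with earlier results of these data known, so its shares beside all genes are not an independent test of the pathway. Against MB10, 21 of the 37 (56.8%) were higher and 2 (5.41%) lower in 2.5% FEx, and 19 (51.4%) were higher and 4 (10.8%) lower in 10% FEx, with median log2 fold changes of 0.21 and 0.25. Over all genes, 22.0% and 25.5% were higher and 22.2% and 27.6% lower. Of the 37, 35 passed the filter in every medium, all but pyr and btl, and of these 20 and 18 were higher. Between the extract media, 5 (13.5%) were higher and 8 (21.6%) lower in 10% FEx, beside 10.5% and 11.3% of all genes. Pvr is both on the wider list and among the plasmatocyte markers. The summed plasmatocyte markers were lower and the summed lamellocyte markers higher in both extract media, as given above. These changes in sum rest largely on Glt and on mys and msn, and their part was not tested.

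Apart from the members spi and vn given above, 6 listed genes of ligands and ligand processing were tested. Of these 6, 4 were higher in each extract medium and none was lower. The shares of all genes were 22.0% and 25.5% higher and 22.2% and 27.6% lower. The 4 differed by medium: stet, grk and S passed in both, rho-4 only in 2.5% FEx and rho only in 10% FEx. Of these, all but stet were named after their values were seen. stet, a rhomboid-family gene for a protease of the kind that cleaves Spitz, was at 0.656 ± 0.206 CPM in MB10, 2.83 ± 0.514 CPM in 2.5% FEx and 3.67 ± 0.184 CPM in 10% FEx (SD, n = 3). It rose by log2 fold changes of 2.09 (SE 0.23, edgeR adjusted p = 1.91e-05) and 2.47 (SE 0.22, adjusted p = 2.19e-06).

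Among adaptors and Ras regulators, 4 of 8 were higher in each extract medium, beside 22.0% of all genes in 2.5% FEx and 25.5% in 10% FEx. In both media the 4 were Sos, dos, RasGAP1 and vap, and of these RasGAP1 and vap limit Ras. All but dos were named after their values were seen. The largest change in 10% FEx was that of dos, the gene for a docking protein between receptors and Ras, which was at 187 ± 2.07 CPM in MB10, 250 ± 3.07 CPM in 2.5% FEx and 287 ± 20.2 CPM in 10% FEx. Its log2 fold changes were 0.42 and 0.62 (edgeR adjusted p = 2.64e-04 and 7.00e-06). Of the 6 Raf, scaffold and partner genes, 2 were higher and 1 lower in 2.5% FEx and 3 were higher in 10% FEx. Over all genes, 22.2% were lower in 2.5% FEx and 27.6% in 10% FEx. cnk, which encodes a scaffold for Raf, went from 84.0 ± 8.83 CPM in MB10 to 139 ± 2.15 and 138 ± 8.59 CPM in the extract media (log2 fold changes 0.72 and 0.71, adjusted p = 1.76e-05 and 1.24e-05).

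All 3 nuclear factor genes were higher in 2.5% FEx and 2 in 10% FEx, beside 22.0% and 25.5% of all genes. Counts over so few genes say little of a step of the pathway. Ets21C, an ETS factor gene, was at 13.1 ± 0.817 CPM in MB10, 18.2 ± 0.868 CPM in 2.5% FEx and 20.8 ± 0.644 CPM in 10% FEx, with log2 fold changes of 0.47 and 0.66 (edgeR adjusted p = 7.64e-04 and 3.44e-05). Its exons overlap over 28.3% of their length with nAChRbeta3 on the opposite strand, which had 3.90 to 19.0 CPM, and how the counting treated strand is not given in the sources used here.

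The largest rises on the list were in ligands of other receptor tyrosine kinases, where 4 of the 5 tested were higher in each extract medium with a log2 fold change above 1. The 4 include pyr, which the filter kept through the extract media, so that it had to differ. Over all genes, 8.52% in 2.5% FEx and 11.0% in 10% FEx passed that size in either direction. The remaining ligand gene, trk, which encodes a ligand of Torso, was lower in 10% FEx (log2 fold change -0.78, adjusted p = 6.75e-04). It was at -0.18 in 2.5% FEx (adjusted p = 0.294). pyr, the gene for Pyramus, a ligand of the FGF receptor Heartless, had 7, 8 and 10 counts in MB10, 87, 96 and 107 counts in 2.5% FEx and 249, 219 and 212 counts in 10% FEx. Its log2 fold changes were 3.37 (SE 0.20, edgeR adjusted p = 6.28e-08) and 4.63 (SE 0.17, adjusted p = 8.60e-10). As only 1 of the 3 MB10 libraries was past the filter, pyr was kept through the extract media, where it is high, and had to differ. htl, the gene for Heartless, had 0 to 4 counts in any library. The receptor genes btl (for Breathless) and tor (for Torso) had 8 to 22 and 0 to 6 counts in a library. bnl, the ligand gene for the FGF receptor Breathless, rose from 21.0 ± 2.03 CPM to 52.6 ± 1.27 CPM and 42.2 ± 3.79 CPM (log2 fold changes of 1.33 and 1.01, adjusted p = 2.02e-07 and 1.90e-06). The others were Pvf2 and Pvf3, ligand genes of Pvr, with log2 fold changes of 2.43 and 4.67 in 2.5% FEx and 3.59 and 4.94 in 10% FEx. Of the 4 receptors tested, 1 was higher in 2.5% FEx, and 2 were higher and 1 lower in 10% FEx. Over all genes, 22.0% were higher in 2.5% FEx, and 25.5% were higher and 27.6% lower in 10% FEx. Pvr, the receptor for the Pvf ligands, was at 771 ± 55.1 CPM in MB10, 704 ± 3.87 CPM in 2.5% FEx and 554 ± 36.2 CPM in 10% FEx. It was lower in 10% FEx than in MB10 (log2 fold change -0.48, adjusted p = 3.00e-04) and than in 2.5% FEx (-0.35, adjusted p = 0.00840). InR, the insulin receptor gene, was higher in both extract media (0.59 and 0.63, adjusted p = 0.00173 and 7.42e-04). The genes trk, Pvr and InR were named after their values were seen. The gene sev, known for its role in the R7 photoreceptor, was higher only in the tests of 10% FEx, against MB10 (log2 fold change 1.01, adjusted p = 1.86e-04) and against 2.5% FEx (log2 fold change 0.76, adjusted p = 0.00347), at 4.86 ± 0.577 CPM.

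**Figure D5:**
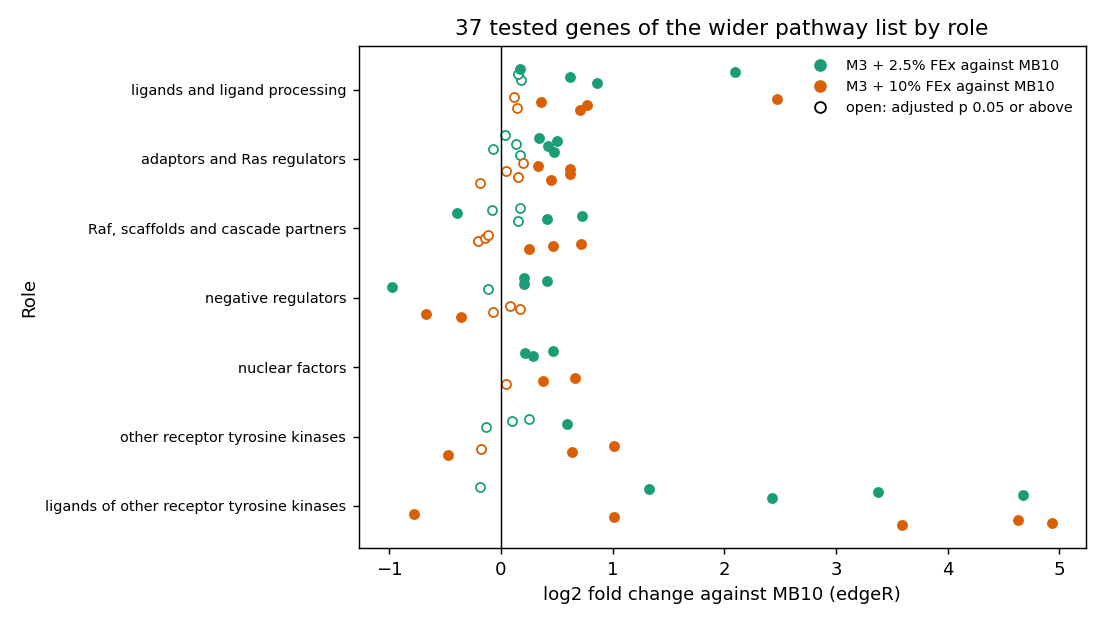
log2 fold change against MB10 of the 37 tested genes of the wider list, by role, in both extract media; filled points have an adjusted p under 0.05. In 2.5% FEx 21 genes and in 10% FEx 19 genes are called on the right of 0, and the ligands of other receptor tyrosine kinases lie farthest out.

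The genes listed as negative regulators were set beside aos and sty in the comparison of the extract media. RasGAP1, vap and Nf1, which also limit Ras, were listed with the Ras regulators and are not in the counts here. Between the extract media they had no call (log2 fold changes of 0.12, -0.01 and 0.16), and they were named after their values were seen. Against MB10, 3 of the 5 negative regulators tested were higher and 1 lower in 2.5% FEx, beside 22.0% and 22.2% of all genes. In 10% FEx none was higher and 2 were lower, beside 25.5% and 27.6%. Between the extract media, 3 were lower and 1 higher in 10% FEx, beside 11.3% and 10.5% of all genes. The lower genes, named after their values were seen, were Cbl (log2 fold change -0.25), a ubiquitin ligase for activated receptors, and the phosphatase genes Mkp3 (-0.28) and PTP-ER (-0.24), which act on ERK (edgeR adjusted p = 0.0109, 0.0193 and 0.0327). edl, the gene for a nuclear protein that modulates Pointed and Yan, was also lower (-0.24, adjusted p = 0.0220). The other listed nuclear factor genes, cic and Ets21C, went the other way without a call (0.17 and 0.19, adjusted p = 0.0957 and 0.107). Mkp3 was at 119 ± 12.8 CPM in MB10, 138 ± 4.69 CPM in 2.5% FEx and 113 ± 2.41 CPM in 10% FEx. kek1, which encodes a transmembrane inhibitor of Egfr and is a target of the pathway in the ovary, went the other way. It was at 84.8 ± 9.80 CPM in MB10, 43.1 ± 2.43 CPM in 2.5% FEx and 53.1 ± 1.96 CPM in 10% FEx, lower in both extract media than in MB10 (log2 fold changes of -0.98 and -0.67, adjusted p = 2.64e-06 and 3.83e-05) and higher in 10% FEx than in 2.5% FEx (0.30, adjusted p = 0.0263). The calls between the extract media were less stable than those against MB10: leaving out 1 library at a time, 3 to 9 genes of the list were lower and 3 to 8 higher in 10% FEx. Without 2.5% FEx replicate 2 or 3, or 10% FEx replicate 1, the lower genes numbered 3 or 4, and without 10% FEx replicate 2 or 3 they numbered 5.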

How the data were processed

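Per the submitters' processing notes, the authors made reads with bcl2fastq (2.20.0), trimmed them with Trimmomatic (0.36), mapped them with HISAT2 (2.1.0) to the dmel_r6.30 genome and counted them per gene with featureCounts (1.6.4). The deposited values are raw read counts, 1 column per library, and none was left out. Strand and multi-mapping settings are not given in the sources used here. Counts were scaled by TMM in edgeR (4.0.16, R 4.3.3), and genes were kept by its expression filter, which asks here for about 0.440 CPM in at least 3 libraries. A quasi-likelihood test in edgeR, fitted to all 9 libraries together, compared each pair of media, with Benjamini-Hochberg adjustment over the 8705 genes kept and a threshold of 0.05. Standard errors were obtained from the log2 fold change and its F statistic. The script was tested on simulated data. Replicates differed by more than counting error (chi-square per degree of freedom 9.75 to 66.1). Positions and exon lengths are from Ensembl BDGP6.54, a later annotation of the same assembly, and 17477 of the 17562 genes matched.

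The members and the wider list were chosen with earlier results of these data known. All members were named. Of the wider list, the gene with the largest change per role in 10% FEx and every gene with an absolute log2 fold change above 1 were named by rule. Alternatives were other scaling factors and filters, DESeq2 (1.42.0), fits of 2 media only, the replicate number as a block, and each library left out.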

Additional observations from a re-analysis of the deposited data

How the results depend on the processing

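Of 476 fold changes of members under an alternative, 441 kept their direction and side of the threshold, 19 lost and 10 gained the call, and 6 reversed, none of them called. The reversed values were -0.0131 for spi in 2.5% FEx against MB10 with upper-quartile factors, and, with a library left out, rl (-0.0294 to 0.224) and sty (-0.0104 to 0.136) in 2.5% FEx, aop (-0.132 to 0.0461) and Dsor1 (-0.180 to 0.0520) in 10% FEx, and pnt (-0.0417 to 0.0039) between the extract media. With a library left out, 1 to 3 members were higher in 2.5% FEx and 1 to 3 in 10% FEx, with 1 and 1 to 2 lower. Between the extract media 1 to 2 were higher and 2 to 3 lower, and 1094 to 2686 of all genes were called in place of 1896, as were 3 to 8 higher and 3 to 9 lower genes of the wider list. In 2.5% FEx, 1 to 2 genes of that list were lower. Upper-quartile factors gave 2 lower members in 2.5% FEx and 3 in 10% FEx, and DESeq2 gave 2 in the latter. A minimum of 10 counts in every library, which removes Egfr, left 1 higher member between the extract media. A fit of those 6 libraries alone gave 4 lower members, 8 higher genes of the wider list and 2904 genes called in all. In a model with the replicate block, 1 member and 3 genes of the wider list were higher between the extract media, and 3378, 4293 and 1426 genes were called in the 3 comparisons, of which 3363, 4277 and 1416 were shared with the model without it. Same-numbered libraries correlated at -0.36 to 0.08 after removal of medium means, and not every library matched its own number best, so the numbers were not read as pairs. The alternatives for the wider list and for the ratio of pnt to aop, which stayed at 1.61 to 1.65, 1.81 to 1.85 and 1.98 to 2.01 in the 3 media, were added after seeing the data. The cause of these shifts was not tested beyond the fewer libraries or genes that a setting holds. Depth limits Egfr above all, and aos, vn and stet to a lesser degree.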

Other observations

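Over all genes, MB10 libraries differed more from each other (chi-square per degree of freedom 43.3 to 66.1) than libraries of the extract media did (9.75 to 32.4), and the members varied unevenly. In MB10 replicate 3, rl (172 CPM), sty (884 CPM), pnt (481 CPM), aop (286 CPM), vn (1.94 CPM) and aos (2.75 CPM) were the lowest of the 3 MB10 libraries, and Dsor1 (35.0 CPM) and Ras85D (342 CPM) were the highest. The coefficient of variation of rl was 18.7% in MB10, 12.5% in 2.5% FEx and 1.21% in 10% FEx, and that of Dsor1 was 18.1%, 4.89% and 7.82%. That of spi was 1.85%, 3.72% and 0.847%, and that of Ras85D 2.51%, 2.48% and 2.52%.

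Of the other ligand genes for Egfr, Krn (Keren) had no call, at 13.5 ± 0.281 CPM in MB10 and log2 fold changes of 0.18 and 0.14 in 2.5% FEx and 10% FEx (edgeR adjusted p = 0.158 and 0.242), and Ndfip overlaps 21.3% of its exon length on the same strand. The gene grk (Gurken) was at 19.5 ± 1.72 CPM in MB10, 35.2 ± 0.383 CPM in 2.5% FEx and 31.8 ± 3.68 CPM in 10% FEx (SD, n = 3), with log2 fold changes of 0.86 and 0.70 (edgeR adjusted p = 2.22e-05 and 7.32e-05). Akap200, on the opposite strand, overlaps 12.3% of its exon length. S, the gene for Star, which carries Spitz to its cleavage, stood at 27.4 ± 1.43, 42.0 ± 1.62 and 46.8 ± 1.73 CPM in that order, with log2 fold changes of 0.62 and 0.77 (adjusted p = 2.28e-05 and 2.18e-06). These genes were named after their values were seen. The 8 listed genes that could not be tested, among them the FGF receptor gene htl and the rhomboid gene ru, had at most 11 counts in any library.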
